A study of Mus musculus with 6 samples.

Results

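The genes described here hydrolyze stored triglyceride or control the enzymes that do so. There were 7 on the list (Pnpla2, Lipe, Mgll, Abhd5, G0s2, Hilpda and Aqp7), chosen by name for their role and looked up by symbol in the table of 13283 genes, where 6 had a value. Aqp7, which encodes the channel that lets glycerol leave the adipocyte, was not analysed here. RNA-seq was performed on 6 libraries of an immortalized mouse brown preadipocyte line (BAT cells) that carries Cas9. The 3 Scr libraries, whose genotype the labels give as WT, came from cells with a scrambled sgRNA. The 3 MICT1 KO libraries came from CRISPR pools made with different sgRNAs against MICT1. The paper describes fewer such pools than these 3 libraries, so the libraries cannot all be from separate pools. The labels do not say which pool gave which library. Cells of both groups were taken through brown adipocyte differentiation and received 10 µM forskolin, which activates adenylyl cyclase, for 6 h on day 6. All values are therefore from stimulated cells, and with 1 cell line the p-values measure only the spread between these cultures. MICT1 itself was not analysed here.

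Lipolysis releases fatty acids from the triglyceride of the lipid droplet, and in brown adipocytes these fatty acids both fuel and activate heat production. ATGL, HSL and MGL take off the fatty acids in sequence and leave glycerol. A rise in cAMP activates PKA, which phosphorylates HSL and the droplet coat protein perilipin 1, and the latter then frees CGI-58 to activate ATGL. G0S2 and HILPDA bind ATGL and inhibit it.

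The unit of the table is a normalized signal per gene, here called the normalized value, with library totals between 16104616 and 16616825. The Scr cells had high levels of the mature adipocyte markers, of which 9 of 12 had values, with a sum of 72525 to 84860 per library against 5597 to 9447 in MICT1 KO cells. All 9 were lower in MICT1 KO cells. Brown adipocyte markers had values for 5 of 12, and of the 4 tested 2 were lower in MICT1 KO cells and 1 higher (1 lower when Scr replicate 1, 2 or 3 was left out, and 1 lower and 0 higher among genes reaching 4 RPKM). Ucp1, which encodes the uncoupling protein of brown fat, had a mean of only 25.1 in Scr and 4.10 in MICT1 KO cells, and Ebf2, a factor of the brown lineage, rose from 65.5 to 156. Their sum ranged from 3454 to 4135 in Scr and from 2429 to 2662 in MICT1 KO cells, most of it from Zic1. Preadipocyte and stroma markers (9 of 12 with values) summed to 36770.0 to 42172 in Scr and 59465 to 63097 in MICT1 KO cells, where 4 of the 7 tested were higher and 2 lower (1 lower under library total or upper quartile scaling and without Scr replicate 1, Scr replicate 2, MICT1 KO replicate 1 or MICT1 KO replicate 2). Dcn, which encodes the matrix proteoglycan decorin, went from 365 ± 75.3 to 9707 ± 133 (SD, n = 3). Dlk1 of the same list went the other way, from 687 ± 35.0 to 63.85 ± 23.0, and Pdgfra was slightly lower (log2 fold change -0.19). Most of the sum came from Col1a1, which was higher, and Col3a1, which was not called. Macrophage and leukocyte (4 of 10), endothelial (2 of 8) and skeletal muscle markers (1 of 10) were at low levels, with sums of 267 to 384, 60.0 to 103 and 17.3 to 27.7 in Scr and of 516 to 639, 99.1 to 131 and 6.32 to 23.8 in MICT1 KO cells. In bulk RNA, fewer adipocytes and less RNA of a gene per adipocyte cannot be told apart, and the part of these shifts in the results on lipolysis genes was not tested.

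Which lipolysis genes differed between MICT1 KO and Scr cells? All 6 genes with values were lower in MICT1 KO cells, from 57.2-fold for the ATGL inhibitor G0s2 to 1.48-fold for the ATGL inhibitor Hilpda. The lipases fell 10.6-fold (Pnpla2), 12.8-fold (Lipe) and 24.7-fold (Mgll), and the co-activator Abhd5 fell 2.91-fold. A gene was called when its adjusted p was under 0.05 by limma-trend on log2(value + 1), with Benjamini-Hochberg adjustment over 12507 genes. By that rule 6 of 6 were lower, against 28.3% of all genes tested, and 0 were higher, against 28.5%. With a fall of at least 2-fold also required the count was 5 of 6, against 5.76% of all genes. The 3 MICT1 KO values lay below the 3 Scr values for 6 of 6, which was so for 31.2% of all genes. The median log2 fold change (MICT1 KO minus Scr) of the 6 was -3.55, and that of all genes tested was -0.01.

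**Figure D1:**
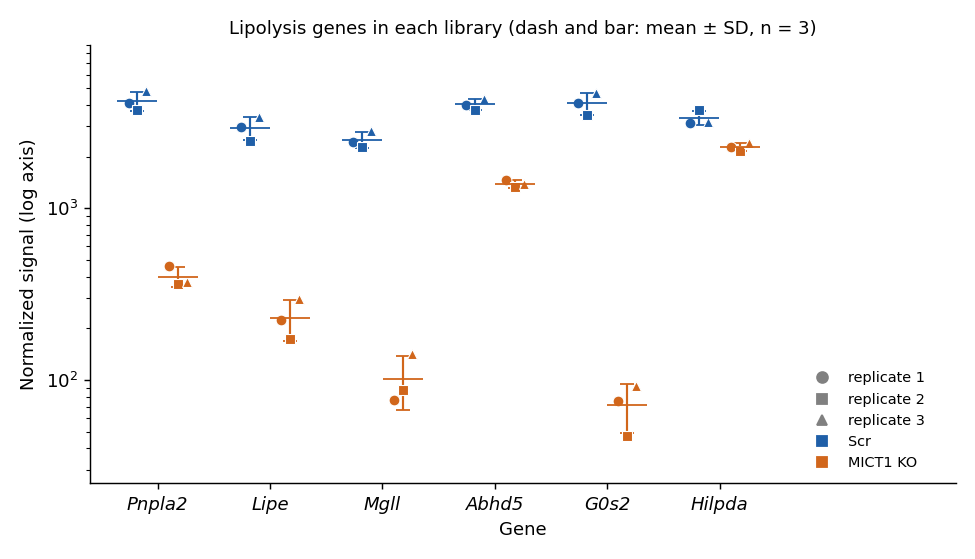
Normalized value (log axis) of the 6 lipolysis genes in each of the 3 Scr and 3 MICT1 KO libraries, with 1 point per library and the group mean ± SD (n = 3). For every gene the MICT1 KO points lie below the Scr points, with the widest gap for G0s2 (4101 to 71.7) and the narrowest for Hilpda (3364 to 2277).

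Pnpla2 encodes ATGL, the lipase that starts triglyceride hydrolysis. It lies on the plus strand at chr7:141455198-141460743 (GRCm38). Its normalized values were 4135, 3754 and 4834 in Scr replicates 1 to 3 and 462, 365 and 373 in MICT1 KO replicates 1 to 3. The groups did not overlap, and the lowest Scr value was 8.12 times the highest MICT1 KO value. The log2 fold change was -3.40 (SE 0.0929, 95% confidence interval -3.60 to -3.21, adjusted p = 2.75e-17 by limma-trend), which left 9.43% of the Scr mean. Among the genes tested, 0.504% had a lower log2 fold change.

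Lipe encodes HSL, which hydrolyzes mainly diacylglycerol and is a direct PKA substrate. It lies on the minus strand at chr7:25379527-25398710. Normalized values were 2983, 2484 and 3398 in Scr cells and 224, 172 and 295 in MICT1 KO cells. The lowest Scr value was 8.41 times the highest MICT1 KO value, and replicate 2 was lowest in both groups. The log2 fold change of -3.70 (SE 0.137, interval -3.98 to -3.41, adjusted p = 3.22e-15 by limma-trend) left 7.80% of the Scr mean.

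Mgll encodes MGL, which splits the last fatty acid from glycerol and also degrades the endocannabinoid 2-arachidonoylglycerol. It lies on the plus strand at chr6:88724412-88828360. Scr values of 2435, 2292 and 2828 stood against 76.3, 87.5 and 142 in MICT1 KO cells. Mgll fell more than the other 2 lipases, with MICT1 KO replicate 3 well above the other MICT1 KO libraries. The log2 fold change was -4.66 (SE 0.155, interval -4.98 to -4.34, adjusted p = 5.77e-16 by limma-trend), and 4.05% of the Scr mean was left. Its coefficient of variation was 11.0% in Scr and 34.5% in MICT1 KO cells, the widest spread of the 6 genes within a group.

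Abhd5 encodes CGI-58, a protein of the alpha/beta hydrolase fold that has no lipase activity of its own and activates ATGL. It lies on the plus strand at chr9:122351608-122381524. In Scr cells the values were 4017, 3757 and 4349, and in MICT1 KO cells 1462, 1323 and 1388. Replicates lay close together in both groups, with a coefficient of variation of 7.35% in Scr and 4.97% in MICT1 KO cells, and the lowest Scr value was 2.57 times the highest MICT1 KO value. The log2 fold change was -1.54 (SE 0.0645, interval -1.67 to -1.40, adjusted p = 2.52e-14 by limma-trend), so 34.4% of the Scr mean was left.

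G0s2, a short gene on the minus strand at chr1:193272161-193273217, encodes the G0/G1 switch protein that inhibits ATGL. Its values were 4135, 3485 and 4682 in Scr cells and 75.3, 47.4 and 92.3 in MICT1 KO cells. Every MICT1 KO library was far below every Scr library, with MICT1 KO replicate 2 the lowest. The lowest Scr value was 37.8 times the highest MICT1 KO value. The log2 fold change of -5.86 (SE 0.161, interval -6.20 to -5.52, adjusted p = 3.00e-17 by limma-trend) was the 9th lowest of the 12507 genes, and 1.75% of the Scr mean was left.

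Hilpda encodes the hypoxia-inducible lipid droplet-associated protein, also an ATGL inhibitor, and lies on the plus strand at chr6:29272488-29275446. The Scr libraries had normalized values of 3165, 3727 and 3200.3, again apart from 2268, 2165 and 2398 in the MICT1 KO libraries. The lowest Scr value was only 1.32 times the highest MICT1 KO value, the smallest gap of the 6 genes. Scr replicate 2, the lowest Scr library for Pnpla2, Lipe, Mgll, Abhd5 and G0s2, was the highest for Hilpda. The log2 fold change was -0.56 (SE 0.0666, interval -0.70 to -0.42, adjusted p = 3.83e-07 by limma-trend), and 67.7% of the Scr mean was left. Of all genes tested, 13.8% had a lower log2 fold change.

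**Figure D2:**
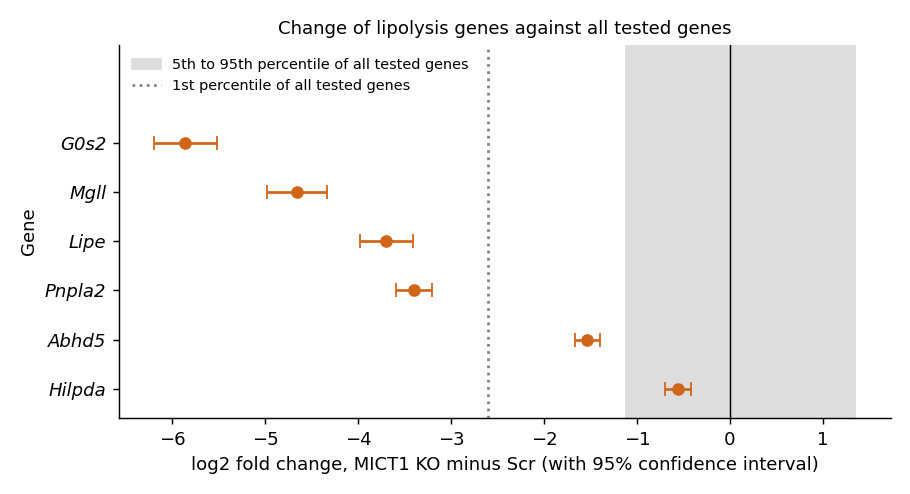
Log2 fold change (MICT1 KO minus Scr) of the 6 lipolysis genes with its 95% confidence interval, ordered by size, beside percentiles of the log2 fold changes of all 12507 genes tested. Hilpda at -0.56 lies inside the range from the 5th percentile (-1.12) to the 95th (1.35), Abhd5 at -1.54 lies between the 1st percentile (-2.60) and the 5th, and the other 4 genes lie below the 1st.

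The adipocyte markers moved with these genes between the groups and, in part, between libraries of a group. Scr replicate 3 had the highest and replicate 2 the lowest marker sum, and the same order of these libraries held for Pnpla2, Lipe, Mgll, Abhd5 and G0s2. In MICT1 KO cells replicate 3 had the highest marker sum and the highest Lipe, Mgll, G0s2 and Hilpda. The marker sum was 10.5-fold lower in MICT1 KO cells, beside 10.6-fold for Pnpla2 and 12.8-fold for Lipe. Most of that sum came from Fabp4, which fell 9.77-fold, while the other markers fell from 4.97-fold (Pparg) to 117-fold (Adipoq). The log2 fold changes of the 9 markers ranged from -6.77 to -2.31, with a median of -4.48. Abhd5 at -1.54 and Hilpda at -0.56 fell less than each of the 9 markers, and the other 4 lipolysis genes lay within their range.

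To compare levels between genes of different length, each value was divided by the library total and the exon length, which gives RPKM. On this scale G0s2 was the most abundant of the 6 in Scr cells at 288 ± 44.0 RPKM (SD, n = 3). Next came Hilpda at 186 ± 14.9, Pnpla2 at 85.8 ± 11.5 and Abhd5 at 41.5 ± 3.32 RPKM. Lipe at 30.7 ± 4.96 and Mgll at 30.3 ± 3.44 RPKM were last, and they were the only neighbours in this order whose ranges overlapped. Inhibitors of ATGL were thus higher than ATGL itself in transcript level per length in Scr cells. This order rests on the exon lengths used, 871 bases for G0s2, 1103 for Hilpda and 3020 for Pnpla2. Before division by length, the Scr mean of Pnpla2 (4241) was above those of G0s2 (4101) and Hilpda (3364).

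In MICT1 KO cells the order of RPKM levels was Hilpda at 127 ± 6.69, Abhd5 at 14.3 ± 0.639, Pnpla2 at 8.11 ± 1.05, G0s2 at 5.04 ± 1.60, Lipe at 2.40 ± 0.648 and Mgll at 1.23 ± 0.431, with no overlap between neighbours. G0s2 went from a level above 99.2% of genes to a level above 45.3%. Hilpda stayed above 97.6% of genes, after 98.8% in Scr cells. Pnpla2 went from the 96.2nd to the 57.4th percentile of levels, Lipe from the 85.8th to the 31.2nd and Mgll from the 85.5th to the 22.3rd.

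The summed RPKM of the 6 genes was 661, 609 and 716 in Scr cells and 158, 148 and 167 in MICT1 KO replicates 1 to 3. Hilpda made up 27.0%, 33.4% and 24.7% of that sum in Scr cells and 79.3%, 81.6% and 80.1% in MICT1 KO cells. G0s2 made up 44.6%, 39.5% and 45.8% in Scr cells and 3.33%, 2.26% and 3.90% in MICT1 KO cells. The share of the 3 lipases together also fell in each MICT1 KO library, while that of Abhd5 went from a range of 6.22% to 6.33% up to 8.59% to 9.46%. Most of what was left of these transcripts in MICT1 KO cells was therefore Hilpda.

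**Figure D3:**
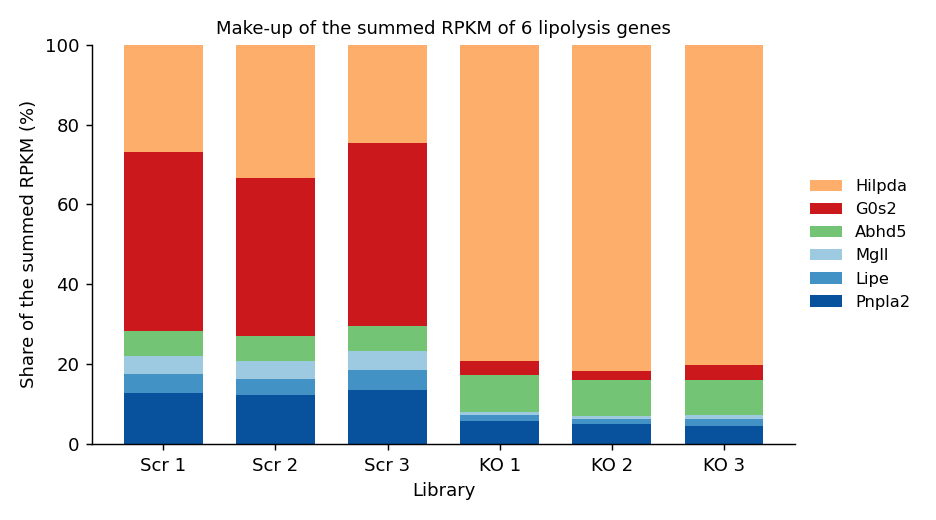
Share (percent) of the summed RPKM of the 6 lipolysis genes taken by each gene in each library, as stacked bars from 0 to 100. G0s2 is the largest share in the 3 Scr libraries (39.5% to 45.8%), and Hilpda is 79.3% to 81.6% of the sum in the 3 MICT1 KO libraries.

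How did the balance of ATGL with its partners differ? Transcript ratios were formed within each library from RPKM, and 5 ratios were compared on the log2 scale with a two-sided exact permutation test. With 3 against 3 libraries its smallest possible p is 0.1, so no ratio could pass 0.05. The 4 ratios at that p had an adjusted p of 0.125 (exact test, Benjamini-Hochberg over these 5 ratios). G0s2 to Pnpla2 was 3.47, 3.22 and 3.36 in Scr cells and 0.565, 0.451 and 0.857 in MICT1 KO cells, 5.56-fold lower (exact p = 0.1). Hilpda to Pnpla2 went the other way, from 2.10, 2.72 and 1.81 to 13.4, 16.3 and 17.6, 7.19-fold higher (exact p = 0.1). The inhibitors thus shifted in opposite directions relative to ATGL, without overlap between groups in either ratio.

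Abhd5 to Pnpla2 was 0.493, 0.507 and 0.456 in Scr cells and 1.60, 1.84 and 1.89 in MICT1 KO cells, 3.65-fold higher (exact p = 0.1). The co-activator was below the lipase in transcript level per length in every Scr library and above it in every MICT1 KO library. Before division by length, their Scr means were close, at 4041 for Abhd5 and 4241 for Pnpla2. Lipe to Pnpla2 was 0.370, 0.340 and 0.361 in Scr cells and 0.249, 0.243 and 0.406 in MICT1 KO cells, and the groups overlapped (difference -0.30 on the log2 scale, exact p = 0.4). Mgll to Lipe was 0.946, 1.07 and 0.965 in Scr cells and 0.395, 0.588 and 0.557 in MICT1 KO cells, 1.96-fold lower (exact p = 0.1). Mgll was therefore near Lipe in level per length in Scr cells and under it in every MICT1 KO library.

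**Figure D4:**
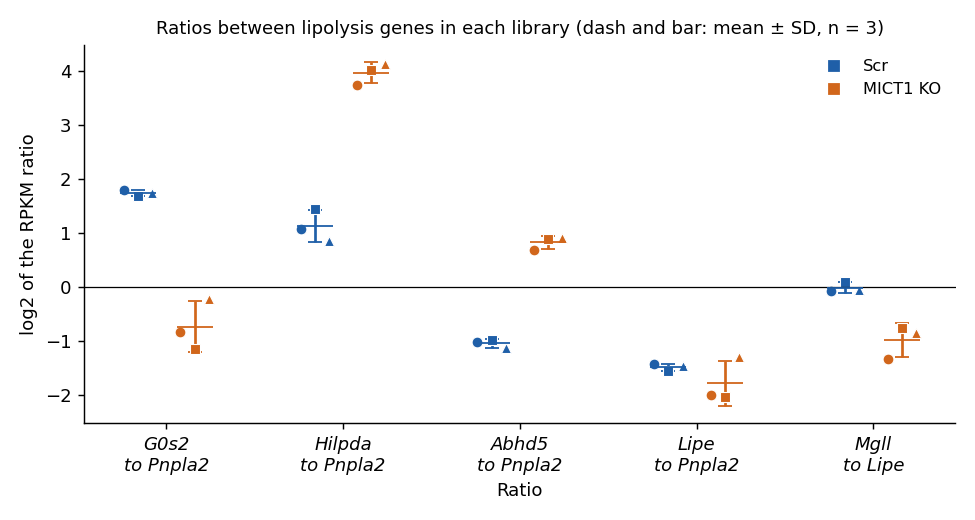
Log2 of the RPKM ratio for 5 pairs of lipolysis genes, with 1 point per Scr or MICT1 KO library and the mean ± SD of each group (n = 3). The groups are separate for every pair except Lipe to Pnpla2, and of the 2 inhibitors G0s2 is lower and Hilpda higher relative to Pnpla2 in MICT1 KO cells.

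The promoters of the extremes are shown so that the gene with the largest fall (G0s2) can be read beside its target Pnpla2, the co-activator Abhd5 and the gene with the smallest fall (Hilpda). They are RefSeq windows on GRCm38.p6, from 250 bases before to 50 after the annotated start, written 5′ to 3′ on the strand of the gene. Capitals mark, on either strand, TGACG (the shorter cAMP response element), AGGTCA (the general nuclear receptor core), ACGTG (the hypoxia core) and GCGTG (its variant). On the other strand TGACG reads CGTCA and AGGTCA reads TGACCT. G0s2 is at chr1:193273139-193273438 on the minus strand, Pnpla2 at chr7:141454938-141455237, Abhd5 at chr9:122351366-122351665 and the downstream start site of Hilpda at chr6:29272376-29272675, all 3 on the plus strand.
G0s2: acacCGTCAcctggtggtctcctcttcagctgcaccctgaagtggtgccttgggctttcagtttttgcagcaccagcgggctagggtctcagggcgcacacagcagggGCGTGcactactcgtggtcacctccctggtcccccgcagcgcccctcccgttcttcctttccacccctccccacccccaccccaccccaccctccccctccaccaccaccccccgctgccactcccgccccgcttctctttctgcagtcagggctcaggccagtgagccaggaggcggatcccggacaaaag
Pnpla2: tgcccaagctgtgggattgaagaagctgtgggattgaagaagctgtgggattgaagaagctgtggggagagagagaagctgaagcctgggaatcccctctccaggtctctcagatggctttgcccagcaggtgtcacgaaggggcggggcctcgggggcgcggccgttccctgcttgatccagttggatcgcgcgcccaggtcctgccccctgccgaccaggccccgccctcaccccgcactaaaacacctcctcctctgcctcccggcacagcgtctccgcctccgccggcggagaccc
Abhd5: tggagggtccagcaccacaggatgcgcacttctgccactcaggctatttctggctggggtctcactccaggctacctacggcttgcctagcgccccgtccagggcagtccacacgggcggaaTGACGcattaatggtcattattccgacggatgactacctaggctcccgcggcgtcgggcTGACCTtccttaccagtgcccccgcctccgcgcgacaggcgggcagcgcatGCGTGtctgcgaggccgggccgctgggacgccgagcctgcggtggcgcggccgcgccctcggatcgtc
Hilpda: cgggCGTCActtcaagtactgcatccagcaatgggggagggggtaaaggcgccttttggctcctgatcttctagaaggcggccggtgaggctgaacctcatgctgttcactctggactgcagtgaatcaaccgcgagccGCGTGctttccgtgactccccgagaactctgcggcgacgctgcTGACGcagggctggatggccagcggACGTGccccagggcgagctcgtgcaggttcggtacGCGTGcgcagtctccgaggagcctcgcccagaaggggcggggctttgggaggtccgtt

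The 6 genes had 9 annotated start sites in RefSeq, since Hilpda, Mgll and Lipe have 2 each. TGACG was in 5 of the 9 windows (Abhd5, G0s2, both of Hilpda, which share one match, and 1 of Mgll) and in 20.8% of 32851 mouse promoter windows. The G0s2 match began 246 bases before the start, and those of Hilpda shown here 246 and 68 bases before it. ACGTG was in 4 windows (19.6% of all). For Hilpda it was only in the window shown here, beginning 43 bases before the start. GCGTG was in 7 windows (32.4% of all), in every gene but Pnpla2. AGGTCA was only in Abhd5, beginning 69 bases before the start (16.3% of all).

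Some of the letters searched were in none of the 9 windows. They were the full cAMP response element TGACGTCA, which contains TGACG (1.79% of all windows), the direct repeat bound by PPAR and RXR, AGGTCANAGGTCA (0.0396%), the C/EBP palindrome TTGCGCAA (0.183%), CCAAT (37.4%) and TATAAA (13.6%). The Pnpla2 window held none of the motifs searched. GC content was 66.7% for G0s2, 65.3% for Pnpla2, 67.7% for Abhd5 and 64.3% for this Hilpda window, against a median of 52.7%. The window of the other Hilpda start site had 50.7%. These are matches of letters and not binding sites, and no binding was measured.

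The other genes of the lipolysis pathway were taken from 6 lists by role, and their counts are read against 28.3% lower and 28.5% higher over all genes. Among lipid droplet proteins, 10 of 16 tested genes were lower and 1 higher (median log2 fold change -1.24). Plin1, which encodes the perilipin that holds CGI-58, fell from 2852 ± 221 to 54.8 ± 35.6 (log2 fold change -5.93), and Cidec, which encodes a droplet fusion protein, from 7342 ± 616 to 179 ± 90.6 (-5.51). The gene that was higher was Vcp, which encodes an ATPase that extracts proteins from membranes (0.18), and without MICT1 KO replicate 3 no gene of the list was called higher. The partner that holds Abhd5 therefore fell further than Abhd5 itself.

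Of other lipid hydrolases, 7 of 20 were lower and 6 higher (median -0.11), or 5 lower and 2 higher when only genes reaching 4 RPKM were kept. Pnpla3, a close relative of Pnpla2, fell from 384 ± 20.8 to 28.3 ± 7.69 (-3.75), and Lpl, which encodes the lipase that acts on circulating lipoproteins, from 55039 ± 5480 to 10184 ± 1260 (-2.44). Nceh1, which encodes a neutral cholesterol ester hydrolase, rose from 48.1 ± 12.9 to 222 ± 8.29 (2.21). Abhd4, an Abhd5 relative that acts on N-acyl phospholipids, rose by 0.49 on the log2 scale. The list held changes in both directions.

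For the cAMP and PKA input, 9 of 20 tested genes were lower and 6 higher (median -0.22), or 8 lower and 3 higher among genes reaching 4 RPKM. Prkar2b, which encodes a regulatory subunit of PKA, fell from 1857 ± 289 to 568 ± 38.1 (log2 fold change -1.70). Higher in MICT1 KO cells were Prkar1b, another regulatory subunit (1.67), and Adcy7, an adenylyl cyclase (1.45). Prkaca, which encodes a catalytic subunit of PKA, had a log2 fold change of -0.03 (adjusted p = 0.726 by limma-trend). Prkacb, which encodes another catalytic subunit, was lower (-0.24, adjusted p = 0.00171 by limma-trend). Genes of this list therefore stood on both sides.

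Among brakes on lipolysis, such as insulin signaling, phosphodiesterases and Gi-coupled receptors, 13 of 22 were lower and 4 higher (median -0.55). Ffar4, a fatty acid receptor, fell from 1109 ± 66.3 to 30.0 ± 17.6 (-5.33), and Irs1, an insulin receptor substrate, from 1242 ± 120 to 306 ± 32.5 (-2.02). Gnai2, a Gi subunit, rose from 2964 ± 18.8 to 4588 ± 220 (0.63), and Npr3, the clearance receptor for natriuretic peptides, by 0.99 on the log2 scale. Adora1, an adenosine receptor at low levels, had a log2 fold change of -4.45, and Pde3b, the phosphodiesterase through which insulin restrains lipolysis, fell by 0.88 on the log2 scale. G0s2 fell further than the lowest gene of this list.

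Of transcription factors that act on lipolysis genes, 15 of 25 tested were lower and 3 higher (median -0.45). Ppargc1b, a coactivator of mitochondrial genes, fell from 445 ± 42.2 to 24.1 ± 5.86 (-4.17), and Nr1h3, the sterol receptor LXR alpha, from 252 ± 27.5 to 30.1 ± 5.40 (-3.04). Pparg, the main regulator of adipogenesis, had a log2 fold change of -2.31. Foxo1, which drives Pnpla2, was at -1.32. Irf4, a cAMP-responsive factor of brown fat at low levels, went from 38.5 ± 9.86 to 3.66 ± 2.39 (-3.22). Egr1, an immediate-early factor that represses Pnpla2, rose from 1841 ± 133 to 6479 ± 416 (1.82), and Cebpd, an early adipogenic factor, by 1.40 on the log2 scale. Of the hypoxia factors that act on Hilpda, Hif1a had a log2 fold change of 0.12 (adjusted p = 0.0596 by limma-trend) and Epas1 fell by 0.52 on the log2 scale.

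In glycerol and fatty acid handling, 17 of 23 tested genes were lower and 4 higher (median -0.99). Gpd1, which makes glycerol 3-phosphate for triglyceride synthesis, fell from 823 ± 153 to 9.88 ± 7.02 (-6.47), and Cd36, the fatty acid transporter, from 3754 ± 379 to 212 ± 89.4 (-4.22). Gk, which phosphorylates glycerol, was at -1.26. Among other aquaporins, Aqp1, a water channel, rose from 876 ± 56.9 to 1304 ± 68.1 (0.57), and the glycerol-permeable Aqp3 had a log2 fold change of -0.34 (adjusted p = 0.599 by limma-trend). Acsl5, an acyl-CoA synthetase, rose by 0.57 on the log2 scale.

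**Figure D5:**
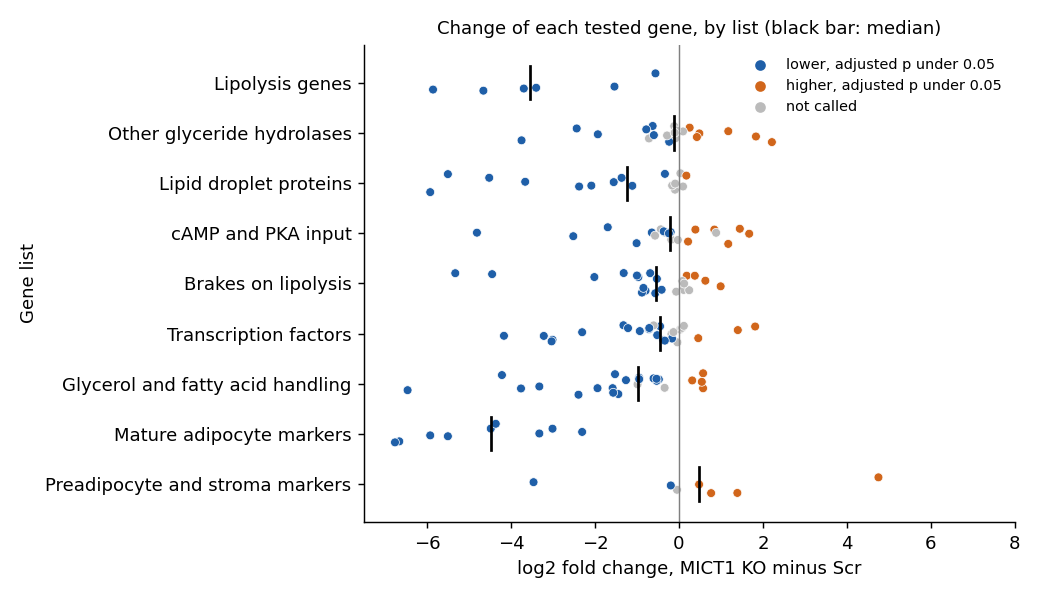
Log2 fold change (MICT1 KO minus Scr) of each tested gene by list, with 1 point per gene coloured by its call and a black bar at the list median. The lipolysis genes have a median of -3.55, between the lipid droplet proteins (-1.24) and the mature adipocyte markers (-4.48), while other hydrolases (-0.11) and the cAMP and PKA input (-0.22) spread to both sides of 0.

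Do other genes follow the pattern of a lipolysis gene across the 6 libraries? Profiles of log2(value + 1), centred on each gene's mean, were compared over 9927 genes with a mean value of at least 100 by their root mean square distance. Pnpla2 was nearest to Fgfr2, a fibroblast growth factor receptor (0.124), and Clu, which encodes clusterin (0.167). Lipe was nearest to Pnpla3 (0.105) and to Plin4, a perilipin (0.145). Mgll was nearest to Sema3g, a semaphorin (0.188), and Clstn3, a calsyntenin (0.245). All distances rest on the same 6 libraries and are given as a description. Centring was over both groups, so a near gene mostly has a similar log2 fold change (-3.32 for Fgfr2 beside -3.40 for Pnpla2).

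Abhd5 was nearest to Taldo1, an enzyme of the pentose phosphate pathway (0.0455), and Dgat1, which makes triglyceride (0.0522). G0s2 was nearest to Nat8l, which makes N-acetylaspartate (0.257), and Cidec (0.290). Hilpda was nearest to Npepps, an aminopeptidase (0.0418), and Slc5a6, a vitamin transporter (0.0454). Distances were smallest for Hilpda and Abhd5, the genes with the smallest falls.

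Did genes beside the lipolysis genes move with them? For each gene the next listed gene by start position was taken on both sides. Next to Pnpla2, Rplp2, a ribosomal protein gene 3.61 kb away, rose by 0.18 on the log2 scale (adjusted p = 0.00559 by limma-trend). Next to G0s2, Hsd11b1, which encodes the enzyme that regenerates active glucocorticoid, lies 8.09 kb away. Scr libraries had values of 124, 133 and 149, and MICT1 KO libraries 3.81, 16.9 and 10.4 (log2 fold change -3.77, adjusted p = 4.89e-08 by limma-trend). Gm26797, 40.7 kb from Abhd5, also fell (-1.40, adjusted p = 0.0193 by limma-trend). Impdh1, which makes guanine nucleotides, lies 56.1 kb from Hilpda and fell by 0.40 on the log2 scale. Sec61a1, 206 kb from Mgll (-0.16), Tcaim, 424 kb from Abhd5 (-0.90), and Plxna2, 1340 kb from G0s2 (-0.37), were also called lower. Of all genes tested, 28.3% were called lower. Not called were Fam71f2, 4.15 kb from Hilpda (adjusted p = 0.252), Abtb1, 7.55 kb from Mgll (0.168), and Ceacam1, 63.0 kb from Lipe (0.536, all by limma-trend).

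Lipe and the antisense gene 4732471J01Rik share 918 exon bases. The antisense values were 11.0, 11.4 and 15.3 in Scr cells and 16.2, 12.0 and 7.39 in MICT1 KO cells, with a log2 fold change of -0.12 (adjusted p = 0.855 by limma-trend). The groups overlapped, and in every library the antisense value was far below the Lipe value, also in MICT1 KO cells. Lamb3, a laminin chain on the other strand, spans G0s2 without a shared exon base, at 52.8 to 75.3 in the Scr and 8.43 to 19.1 in the MICT1 KO libraries, and it fell as well (log2 fold change -2.06, adjusted p = 6.37e-05 by limma-trend). Mgll and Abhd5 also share 167 and 950 exon bases with antisense genes that were not analysed here. The methods describe strand-specific libraries, but whether counting used the strand was not given in the sources used here.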

How the data were processed

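RNA-seq values of 6 libraries were used, 3 Scr and 3 MICT1 KO, grouped by the sample labels. The authors deposited a normalized signal per gene. Their methods give alignment to mm10 with Partek, and the submitters' processing notes also name STAR and DESeq2, without a role. The counting model and gene annotation are not given in the sources used here. Too few values were whole reads to recover counts, so depth is unknown. The count-based test that the planned design allowed for was not run.

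Log2(value + 1) was fitted with limma 3.58.1 (limma-trend, R 4.3.3) after a filter of at least 10 in at least 3 libraries, which kept 12507 of 13283 genes and 6 of the 6 lipolysis genes with values. Fold changes are on this scale and understate those of low genes, and folds given as ratios are of group means. A gene was called at a Benjamini-Hochberg adjusted p under 0.05. RPKM used library totals and exon lengths of GENCODE vM21 (12930 genes matched by symbol), which also gave positions, and promoters came from RefSeq (GRCm38.p6). Exact permutation tests ran in scipy 1.17.1. Procedures were tested on simulated data. The lipolysis genes and all lists were chosen with earlier results of these data known.

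Named were every lipolysis gene, the 2 largest falls and rises of each pathway list (adjusted p under 0.05, mean at least 100, no overlap) and the 2 nearest profiles per gene. A gene named by this rule is not reported here. Adora1, Pde3b, Prkaca, Prkacb, Pparg, Foxo1, Irf4, Hif1a, Epas1, Gk and Aqp3 were added for their known roles after their values were seen. The next genes with values on either side were taken by start position, and 1 of these (beside Pnpla2) did not pass the filter. Alternatives were 3 other scalings, limma-voom, pseudocounts of 0.5 and 5, other filters, the replicate number as a block and each library left out.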

Additional observations from a re-analysis of the deposited data

How the results depend on the processing

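Under every alternative run (other scalings, limma-voom, other pseudocounts and filters, the replicate block, each library left out), the 6 lipolysis genes kept the lower direction and an adjusted p under 0.05 by limma. Over these settings the log2 fold change ranged from -3.51 to -3.31 for Pnpla2, -3.89 to -3.51 for Lipe, -4.92 to -4.48 for Mgll, -1.59 to -1.48 for Abhd5, -6.07 to -5.59 for G0s2 and -0.60 to -0.48 for Hilpda, whose adjusted p reached at most 1.40e-05. The count over all genes ranged from 2827 to 3565 lower and from 2567 to 3833 higher. Log2 ratio differences ranged from -2.73 to -2.27 for G0s2 to Pnpla2, 2.71 to 3.01 for Hilpda to Pnpla2, 1.83 to 1.94 for Abhd5 to Pnpla2, -0.54 to -0.17 for Lipe to Pnpla2 and -1.08 to -0.79 for Mgll to Lipe. Of the pathway and marker lists, the filter at 4 RPKM gave 5 lower and 2 higher hydrolases and 8 lower and 3 higher cAMP and PKA genes, and the only droplet gene called higher was lost without MICT1 KO replicate 3.

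Over all genes tested, same-numbered libraries deviated from their group means with correlations of -0.0236, -0.0155 and 0.0637. Only 2 of 6 libraries correlated best with their own number, so the numbers were not read as pairs. Lipe and G0s2 did rank the libraries alike in both groups (replicate 3, then 1, then 2), and the other lipolysis genes did not. The block lowered the adjusted p by limma-trend, from 3.22e-15 to 7.42e-21 for Lipe and from 3.00e-17 to 6.73e-23 for G0s2. With the replicate block 3512 genes were lower, 3543 higher, and 6 of 6 lipolysis genes lower.

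Apart from limma-voom, no count-based test was run, because the values are not whole reads. That method was made for counts and here took the normalized values. Since depth is unknown, no counting interval was given for the low MICT1 KO values of G0s2 and Mgll. With 3 cultures per group the exact tests of ratios could not pass 0.05, and the pools stand for 1 cell line.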
